A study of Mus musculus with 16 samples.

Results

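The genes described here are 55 genes of the G1/S transition and of DNA replication, listed by name from the known roles of their proteins, with no measured value in the rule itself. They were followed in bulk RNA-seq of an immortalised mouse macrophage line. All 55 were found by symbol among the 27179 gene identifiers of the count table, and all 55 passed the filter on low counts that left 12589 genes tested. They were grouped by role as 11 genes of origin licensing, 7 of origin firing, 8 of primase and the replicative polymerases, 3 of single-stranded DNA binding, 8 of the sliding clamp, its loader and Okazaki fragment maturation, 6 of nucleotide supply and uracil removal, 8 of G1/S control and 4 of chromatin assembly and histone mRNA.

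The cells were iBMDM macrophages labelled MyD88-AGF, with the genotype given as MyD88-AGF WT in every library, so that all groups share this background and come from 1 line. Responders were cells treated with LPS, the bacterial lipopolysaccharide sensed by TLR4, at 10 ng/mL for 6 hours and then sorted for high side scatter. Bystanders came from the same treatment and were sorted for low side scatter. The LPS pool was treated in the same way and passed through the sorter without a side scatter gate, and untreated cells, which received no LPS, were passed through ungated as well. Sorted cells were collected before the ungated ones, so that the gate and the order of collection cannot be told apart. Each group had 4 libraries, which the labels do not describe as separate cultures, and the p-values therefore measure only the spread between these samples.

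A cell that passes from G1 into S phase first loads the MCM helicase onto origins with the origin recognition complex, Cdc6 and Cdt1, and geminin (Gmnn) blocks a further round of loading. The kinase Cdc7 with its partner Dbf4, and cyclin E with Cdk2, then turn the loaded helicase into an active one with Cdc45 and the GINS complex. Many of these genes are transcribed by E2F factors, which are released when cyclin D with Cdk4 phosphorylates the retinoblastoma protein. In macrophages, LPS is known to slow or stop proliferation while the inflammatory programme is switched on.

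The libraries held between 15287344 and 25193162 counts. The levels below are CPM, counts scaled to library sizes corrected by edgeR's TMM factors, and they compare 1 gene between samples, not genes with each other. The scaling mattered, because the TMM factors ran from 0.893 in responders to 1.173 in untreated cells. With library totals alone, the median log2 fold change of all genes tested moved to -0.20 for responders against bystanders and to -0.36 for the LPS pool against untreated cells, so that changes are to be read relative to the genes tested as a whole. The median biological coefficient of variation was 0.0357, and 8 of 8 macrophage markers passed the filter, with summed levels of 4138 to 4186 CPM in responders, 3811 to 3852 CPM in bystanders, 3964 to 4032 CPM in the LPS pool and 3328 to 3361 CPM in untreated cells. Single markers differed in direction between responders and bystanders, such as Adgre1 (log2 fold change 1.37) and Csf1r (-0.34). Mertk was low, at means of 0.689 CPM in responders and 2.14 CPM in bystanders.

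Most of the replication genes were lower in responders than in bystanders. Of the 55 genes, 41 were lower and 6 were higher, and 8 passed in neither direction (edgeR quasi-likelihood test, adjusted p under 0.05 over all genes tested). Over all genes tested, 35.3% were lower and 34.7% were higher, so that the share of lower calls among the replication genes (74.5%) stood above the background and the share of higher calls (10.9%) below it. The median log2 fold change of the 55 genes was -0.29, beside -0.01 for all genes tested, and the changes were small: 9 genes were lower by at least 1.5-fold and 1 by at least 2-fold. Of all 12589 genes tested, 1562 were lower by at least 1.5-fold and 671 by at least 2-fold. Between the 2 sorted groups the libraries did not overlap for 39 genes that were lower and 5 that were higher, against 32.2% and 31.8% of all genes tested. Summed over the 55 genes, the level was 4729 ± 9.21 CPM in the responder libraries, against 5576 ± 39.0 CPM in the bystander libraries (mean ± SD, n = 4 each). With library totals alone, 50 genes were lower and 3 higher, while the share of higher calls among all calls went down to 27.8%, against 49.5% with TMM. In bulk RNA, fewer cells in S phase and less RNA of these genes per cell cannot be told apart.

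**Figure D1:**
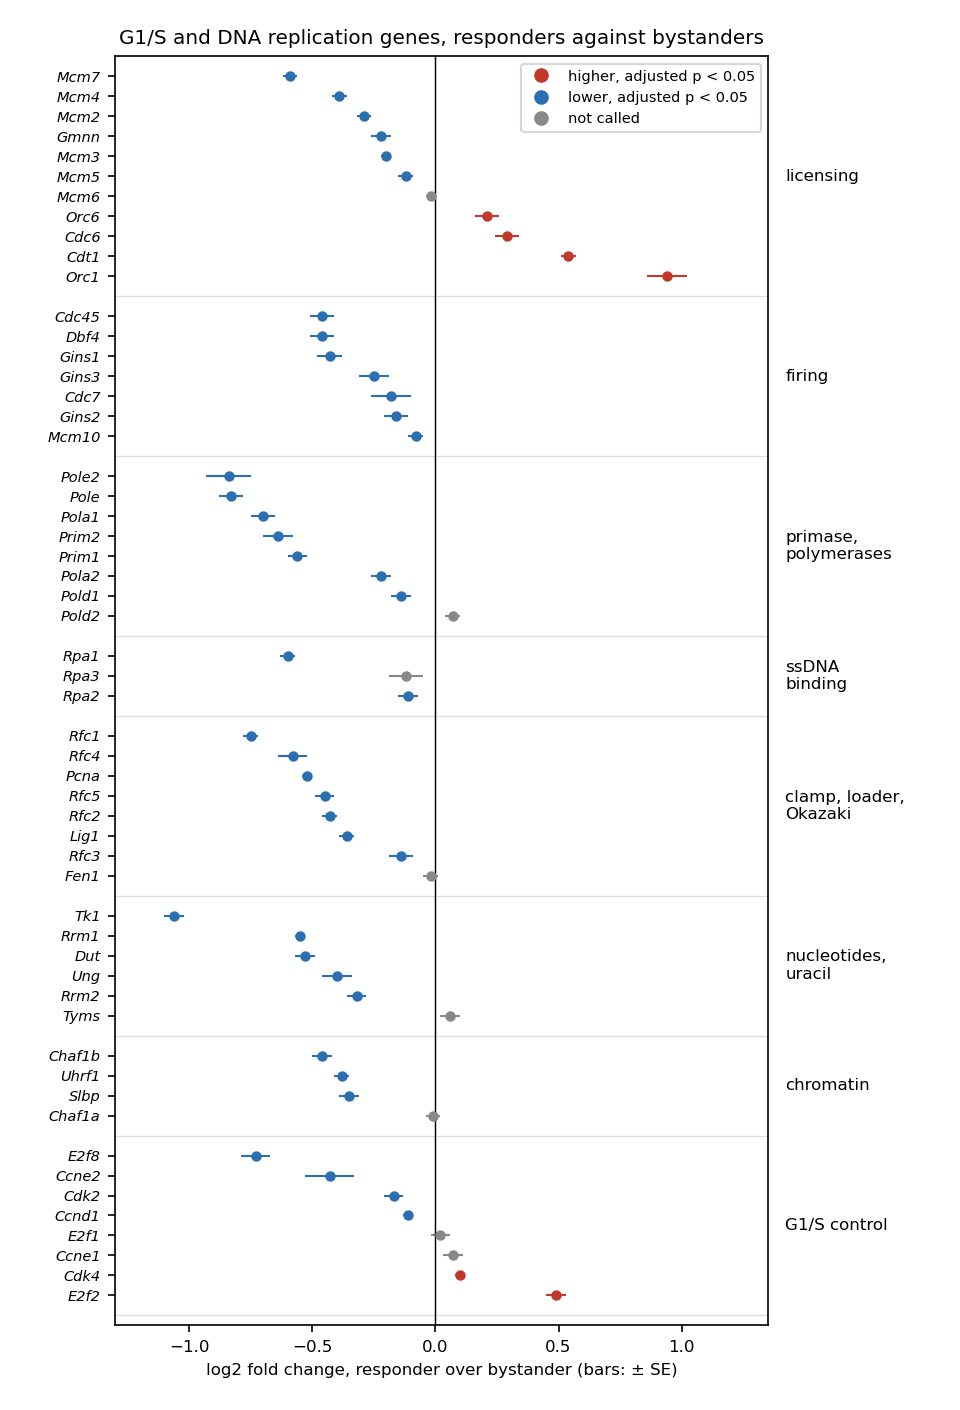
Log2 fold change of each of the 55 genes in responders over bystanders (horizontal axis, log2 scale, bars are ± SE from edgeR), with the genes grouped by role down the page. The 41 genes that were lower lie left of 0 across every role, and the 6 that were higher belong to licensing (Orc1, Cdt1, Cdc6, Orc6) and G1/S control (E2f2, and Cdk4, which turned with library totals alone).

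Origin licensing included genes of both directions, with 4 of 11 genes higher in responders and 6 lower, at a median log2 fold change of -0.12. These were 36.4% and 54.5%, against 34.7% and 35.3% of all genes tested, so that the share of higher calls was near the background. The same shares of all genes tested apply to the counts of each role below. Orc1, the largest subunit of the origin recognition complex, had 19.8, 21.1, 17.5 and 17.7 CPM in responder libraries, against 10.1, 10.1, 9.04 and 10.6 CPM in bystander libraries. Every responder library lay above every bystander library, and Orc1 was 1.92-fold higher (log2 fold change 0.94, SE 0.08, edgeR adjusted p = 2.37e-17). Cdt1, which brings the MCM helicase to the origin, had 141, 136, 140 and 138 CPM in responder libraries, against 97.6, 91.6, 95.2 and 97.8 CPM in bystander libraries. These groups did not overlap either, and Cdt1 was 1.45-fold higher (log2 0.54, SE 0.03, edgeR adjusted p = 3.34e-26). Cdc6, the ATPase that loads the helicase together with Cdt1, had 40.4, 37.1, 41.1 and 39.9 CPM in responder libraries, against 30.3, 32.7, 33.7 and 32.6 CPM in bystander libraries. It was 1.22-fold higher with no overlap (log2 0.29, SE 0.05, edgeR adjusted p = 1.51e-07), but the call was lost with library totals alone (log2 0.10, edgeR adjusted p = 0.0511). Orc6, a smaller subunit of the origin recognition complex, was called higher at a log2 fold change of 0.21 (edgeR adjusted p = 0.000260), with overlapping libraries and no call with library totals alone (log2 0.02, edgeR adjusted p = 0.725).

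The subunits of the helicase itself moved the other way. Mcm7 had 104, 102, 101 and 102 CPM in responder libraries, against 156, 154, 154 and 156 CPM in bystander libraries, and the groups were far apart beside the spread within each. It was 1.51-fold lower (log2 fold change -0.59, SE 0.03, edgeR adjusted p = 7.98e-30). Mcm4 (-0.39), Mcm2 (-0.29), Mcm3 (-0.20) and Mcm5 (-0.12) were also called lower on the log2 scale, and Mcm6 was not called (-0.02, edgeR adjusted p = 0.314). The 6 subunits form 1 ring, yet the log2 fold changes of their mRNAs ran from -0.59 to -0.02. Geminin (Gmnn), the inhibitor of Cdt1, was lower at -0.22.

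All 7 genes of origin firing were lower in responders, at a median log2 fold change of -0.25. Cdc45, a subunit of the active helicase, had 28.4, 29.2, 29.8 and 31.6 CPM in responder libraries, against 39.8, 44.5, 38.8 and 41.4 CPM in bystander libraries. Dbf4, the activating partner of the Cdc7 kinase, had 32.2, 31.8, 33.8 and 29.4 CPM in responder libraries, against 44.9, 44.6, 43.2 and 42.5 CPM in bystander libraries. In neither gene did the groups overlap, and both had a log2 fold change of -0.46 with an SE of 0.05 (edgeR adjusted p = 4.67e-13 for Cdc45 and 7.95e-14 for Dbf4). Of the GINS subunits among the 55 genes, Gins1 was lower at -0.43, Gins3 at -0.25 and Gins2 at -0.16 on the log2 scale. Cdc7 was the least certain of these calls (log2 fold change -0.18, edgeR adjusted p = 0.0314): its libraries overlapped, and the call was lost under DESeq2 (adjusted p = 0.0548) and when responder replicate 1, 3 or 4 or bystander replicate 2 or 4 was left out (edgeR adjusted p from 0.0565 to 0.163). Gins2 lost its call without responder replicate 3 (edgeR adjusted p = 0.0502). Mcm10, which helps activate the loaded helicase, had 137, 134, 133 and 131 CPM in responder libraries, against 141, 142, 143 and 141 CPM in bystander libraries. All 4 responder libraries were below all 4 bystander libraries, at a log2 fold change of only -0.08 (SE 0.03, edgeR adjusted p = 0.00346).

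The enzymes that start and extend DNA strands showed the lowest median of any role, -0.60 on the log2 scale, with 7 of 8 genes lower. Pole, the catalytic subunit of DNA polymerase epsilon, had 24.5, 22.5, 25.4 and 23.6 CPM in responder libraries, against 43.0, 42.4, 43.1 and 42.6 CPM in bystander libraries. Pole2, its second subunit, had 7.42, 6.27, 8.56 and 8.35 CPM in responder libraries, against 14.5, 13.2, 13.3 and 13.9 CPM in bystander libraries. For both genes the responder libraries formed a separate lower group. The log2 fold change was -0.83 for Pole (SE 0.05, edgeR adjusted p = 8.08e-22) and -0.84 for Pole2 (SE 0.09, edgeR adjusted p = 2.67e-13). The catalytic subunit of polymerase alpha, Pola1, was lower at -0.70 (SE 0.05, edgeR adjusted p = 2.78e-20), and the primase subunits Prim2 and Prim1 were lower at -0.64 and -0.56. The polymerase alpha accessory subunit Pola2 (-0.22) and the catalytic subunit of polymerase delta, Pold1 (-0.14), were lower by less. Pold2, the accessory subunit of polymerase delta, was not called (log2 fold change 0.07, edgeR adjusted p = 0.0611), but its call rested on the settings. It passed as higher with RLE size factors (0.08, edgeR adjusted p = 0.0396), under DESeq2 (0.08, adjusted p = 0.0489), in a fit of only the 2 groups (0.07, edgeR adjusted p = 0.0499) and without responder replicate 2 or 3 or bystander replicate 1 or 2 (edgeR adjusted p from 0.00828 to 0.0468), and it passed as lower with library totals alone (-0.12, edgeR adjusted p = 0.00191).

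At the fork, 7 of 8 genes of the clamp, the clamp loader and Okazaki fragment maturation were lower, at a median of -0.44. Pcna, the sliding clamp, had 361, 356, 358 and 361 CPM in responder libraries, against 523, 522, 502 and 511 CPM in bystander libraries. The 2 groups were separated by more than 100 CPM, and Pcna was 1.43-fold lower (log2 -0.52, SE 0.02, edgeR adjusted p = 4.04e-30). Rfc1, the large subunit of the clamp loader, had 65.9, 70.4, 63.7 and 62.9 CPM in responder libraries, against 114, 110, 112 and 107 CPM in bystander libraries. Rfc4, a small subunit of the same complex, had 19.1, 20.3, 18.6 and 20.2 CPM in responder libraries, against 29.4, 27.8, 28.9 and 30.7 CPM in bystander libraries. Both were lower with no overlap, Rfc1 at -0.75 (SE 0.03, edgeR adjusted p = 4.56e-29) and Rfc4 at -0.58 (SE 0.06, edgeR adjusted p = 1.72e-14). Rfc5 (-0.45), Rfc2 (-0.43) and the DNA ligase Lig1 (-0.36) were lower as well. Rfc3 was called lower by a small amount (-0.14, edgeR adjusted p = 0.00621) with overlapping libraries, and this call was lost without responder replicate 1 (edgeR adjusted p = 0.0604). The flap endonuclease Fen1 was not called (-0.02, edgeR adjusted p = 0.633).

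Among the subunits of replication protein A, which coats single-stranded DNA, 2 of 3 were lower. Rpa1, the large subunit, had 94.9, 98.2, 102 and 97.6 CPM in responder libraries, against 150, 148, 147 and 149 CPM in bystander libraries. The groups did not overlap (log2 fold change -0.60, SE 0.03, edgeR adjusted p = 3.77e-28). Rpa3, the smallest subunit, had 18.5, 18.1, 16.1 and 17.2 CPM in responder libraries, against 20.6, 18.9, 17.4 and 19.5 CPM in bystander libraries. These libraries overlapped and the difference did not pass (log2 -0.12, edgeR adjusted p = 0.0883), although it did without bystander replicate 3 (-0.17, edgeR adjusted p = 0.0296). Rpa2 was called lower at -0.11, but not without bystander replicate 3 (edgeR adjusted p = 0.0564).

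The gene with the largest difference of the 55 was Tk1, thymidine kinase of the salvage route to dTTP. It had 33.7, 35.5, 33.7 and 32.6 CPM in responder libraries, against 70.7, 74.1, 70.0 and 67.8 CPM in bystander libraries. No responder library reached the lowest bystander library, and Tk1 was 2.08-fold lower (log2 fold change -1.06, SE 0.04, edgeR adjusted p = 5.17e-33). Rrm1, the large subunit of ribonucleotide reductase, had 183, 188, 189 and 185 CPM in responder libraries, against 264, 275, 274 and 274 CPM in bystander libraries. It was lower by 0.55 on the log2 scale with no overlap (log2 fold change -0.55, SE 0.02, edgeR adjusted p = 3.01e-31). The small subunit Rrm2 (-0.32), the dUTPase Dut (-0.53) and the uracil-DNA glycosylase Ung (-0.40) were also lower, whereas the thymidylate synthase Tyms was not called (0.06, edgeR adjusted p = 0.213) except as higher without bystander replicate 3 (0.09, edgeR adjusted p = 0.0470). In all, 5 of 6 genes of nucleotide supply and uracil removal were lower, at a median of -0.46.

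G1/S control also had both directions, with 2 of 8 genes higher in responders, 4 lower and 2 not called, at a median of -0.05. E2f2, an activating member of the E2F family, had 47.8, 51.5, 50.9 and 47.1 CPM in responder libraries, against 37.6, 34.6, 35.4 and 33.4 CPM in bystander libraries. E2f8, a repressing member of the family, had 19.1, 18.1, 16.7 and 18.8 CPM in responder libraries, against 31.2, 31.9, 29.1 and 28.7 CPM in bystander libraries. The 2 factors thus differed in opposite directions without overlap: E2f2 was 1.40-fold higher (log2 0.49, SE 0.04, edgeR adjusted p = 1.01e-15) and E2f8 was lower (log2 -0.73, SE 0.06, edgeR adjusted p = 6.88e-18). E2f1, another activator, was not called (0.02, edgeR adjusted p = 0.698). Ccnd1, encoding cyclin D1, had 917, 924, 931 and 918 CPM in responder libraries, against 992, 991, 1017 and 994 CPM in bystander libraries. The difference was small beside its level but did not overlap (log2 -0.11, SE 0.02, edgeR adjusted p = 1.45e-07). Of the cyclin E genes, Ccne2 was lower (-0.43) and Ccne1 was not called (0.07, edgeR adjusted p = 0.136). Cdk2, the partner of cyclin E, was lower (-0.17), and Cdk4, the partner of cyclin D, was higher by TMM scaling (0.10, edgeR adjusted p = 8.06e-05) but lower with library totals alone (-0.09, edgeR adjusted p = 0.000139).

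Of the 4 genes of chromatin assembly and histone mRNA, 3 were lower, at a median of -0.36. Uhrf1, which guides maintenance methylation to new DNA, had 113, 114, 113 and 114 CPM in responder libraries, against 147, 144, 150 and 149 CPM in bystander libraries. Chaf1b, a subunit of chromatin assembly factor 1, had 34.6, 34.0, 31.8 and 33.9 CPM in responder libraries, against 44.2, 48.6, 47.5 and 44.6 CPM in bystander libraries. Neither pair of groups overlapped, and the log2 fold changes were -0.38 for Uhrf1 (SE 0.03, edgeR adjusted p = 5.61e-20) and -0.46 for Chaf1b (SE 0.04, edgeR adjusted p = 3.02e-14). The stem-loop binding protein of histone mRNA, Slbp, was lower at -0.35. Chaf1a, the large subunit of the same assembly factor, was not called (-0.01, edgeR adjusted p = 0.721).

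**Figure D2:**
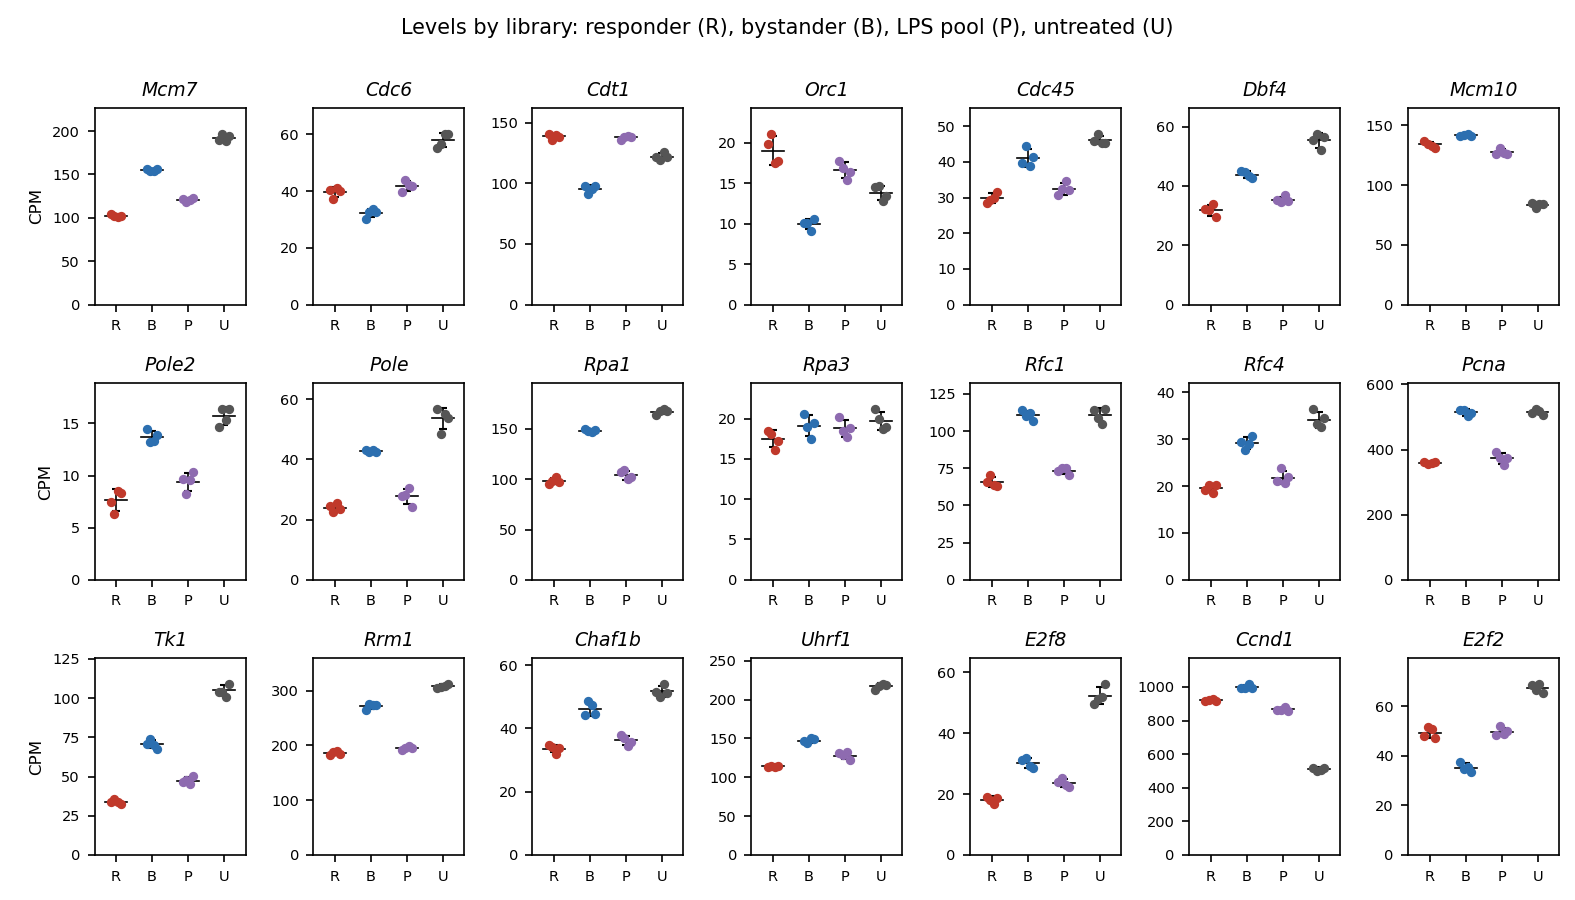
Levels of 21 of the genes in every library, in CPM on a linear vertical axis from 0, for responders (R), bystanders (B), the LPS pool (P) and untreated cells (U); points are libraries and horizontal lines with bars are group means ± SD (n = 4 each). Orc1, Cdt1, Cdc6 and E2f2 are higher in responders than in bystanders, while Tk1, Pole, Rfc1 and Pcna are lower, and Ccnd1 and Mcm10 are lowest in untreated cells.

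E2F binding motifs were looked up in the promoter windows of the genes, because E2F factors are known regulators of this pathway and because genes of both directions were found. The windows come from RefSeq on GRCm38.p6 and reach from 250 bases before to 50 bases after an annotated start of transcription. Windows were at hand for 46 of the 55 genes, and the genes not looked up were Mcm4, Gins1, Gins2, Prim2, Pole, Rfc2, Ccne2, Ccnd1 and Gmnn. The 3 licensing genes with a motif that were higher in responders are shown first, then the 3 genes with a motif and the lowest fold changes. Each window is written 5′ to 3′ on the strand of the gene, with the motif in capitals on whichever strand it matched:
Orc1, chr4:108579204-108579503, plus strand: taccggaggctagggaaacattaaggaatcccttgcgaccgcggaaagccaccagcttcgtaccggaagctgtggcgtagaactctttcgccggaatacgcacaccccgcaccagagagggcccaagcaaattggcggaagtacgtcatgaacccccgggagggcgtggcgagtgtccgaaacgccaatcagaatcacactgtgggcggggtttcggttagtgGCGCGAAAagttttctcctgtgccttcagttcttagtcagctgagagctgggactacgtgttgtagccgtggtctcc
Cdt1, chr8:122567765-122568064, plus strand: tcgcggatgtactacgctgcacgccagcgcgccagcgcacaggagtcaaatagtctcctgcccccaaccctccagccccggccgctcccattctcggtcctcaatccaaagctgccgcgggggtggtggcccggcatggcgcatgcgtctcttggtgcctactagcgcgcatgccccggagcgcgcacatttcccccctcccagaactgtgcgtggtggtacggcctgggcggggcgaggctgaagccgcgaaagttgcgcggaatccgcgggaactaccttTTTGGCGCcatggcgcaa
Cdc6, chr11:98907901-98908200, plus strand: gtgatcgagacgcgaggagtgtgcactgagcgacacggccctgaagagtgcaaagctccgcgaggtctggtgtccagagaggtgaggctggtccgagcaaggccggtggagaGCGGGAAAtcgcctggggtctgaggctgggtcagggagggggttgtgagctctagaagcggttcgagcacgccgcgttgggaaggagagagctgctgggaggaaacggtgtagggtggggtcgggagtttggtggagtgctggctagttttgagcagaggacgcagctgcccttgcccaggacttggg
Pole2, chr12:69228141-69228440, minus strand: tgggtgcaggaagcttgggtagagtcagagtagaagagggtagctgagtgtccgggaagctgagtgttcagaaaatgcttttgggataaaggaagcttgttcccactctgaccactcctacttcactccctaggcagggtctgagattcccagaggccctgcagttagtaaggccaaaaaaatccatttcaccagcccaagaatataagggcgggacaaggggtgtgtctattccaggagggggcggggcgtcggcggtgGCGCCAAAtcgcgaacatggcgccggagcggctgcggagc
Pola1, chrX:93632106-93632405, minus strand: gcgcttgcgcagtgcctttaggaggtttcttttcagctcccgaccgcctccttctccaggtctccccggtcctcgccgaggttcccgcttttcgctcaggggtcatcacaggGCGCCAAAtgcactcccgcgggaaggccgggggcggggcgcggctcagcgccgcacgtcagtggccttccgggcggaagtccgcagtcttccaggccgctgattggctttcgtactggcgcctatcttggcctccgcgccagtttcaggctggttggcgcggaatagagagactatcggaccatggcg
Mcm7, chr5:138171834-138172133, minus strand, with 2 matches: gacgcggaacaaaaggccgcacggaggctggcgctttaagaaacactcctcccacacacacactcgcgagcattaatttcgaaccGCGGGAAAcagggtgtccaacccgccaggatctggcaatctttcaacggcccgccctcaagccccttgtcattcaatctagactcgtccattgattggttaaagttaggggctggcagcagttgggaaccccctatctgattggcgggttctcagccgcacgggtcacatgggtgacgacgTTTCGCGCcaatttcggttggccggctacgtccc

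The main letters searched were TTTCCCGC, TTTCGCGC, TTTGCCGC and TTTGGCGC on either strand, and overlapping matches in Mcm5 and Mcm6 were each counted. At least 1 of them was present in 16 of the 46 genes (34.8%), against 464 of 9701 genes tested with a window (4.78%) and 704 of 27025 genes in the whole promoter table (2.6%). The same motifs shortened to their last 6 letters separated the genes less: they were present in 39 of the 46 genes (84.8%), against 65.2% of genes tested and 39% of the table. The base composition differed as well, with a median GC content of 63% in the windows of the replication genes, 60.3% in those of the genes tested and 52.7% in the whole table. CCAAT, the letters of the CCAAT box, was present in 27 of the 46 genes (58.7%), against 43.2% of genes tested and 41.1% of the table. The E2F letters stood in windows of both directions: in 4 of the 6 genes higher in responders, in 11 of 32 lower genes and in 1 of 8 genes that were not called. In Orc1 the match lay 27 bases before the annotated start used for its window, and in Cdc6 138 bases before it. In Cdt1 the match lay 32 bases after that start, and in Pole2 10 bases after it. The windows of Orc1 and Cdc6 lie inside the annotated genes, which begin at 108575705 and 98907709. More than 1 window was at hand for 7 genes, and a match in any of them was counted. A match describes these letters and shows no binding.

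**Figure D3:**
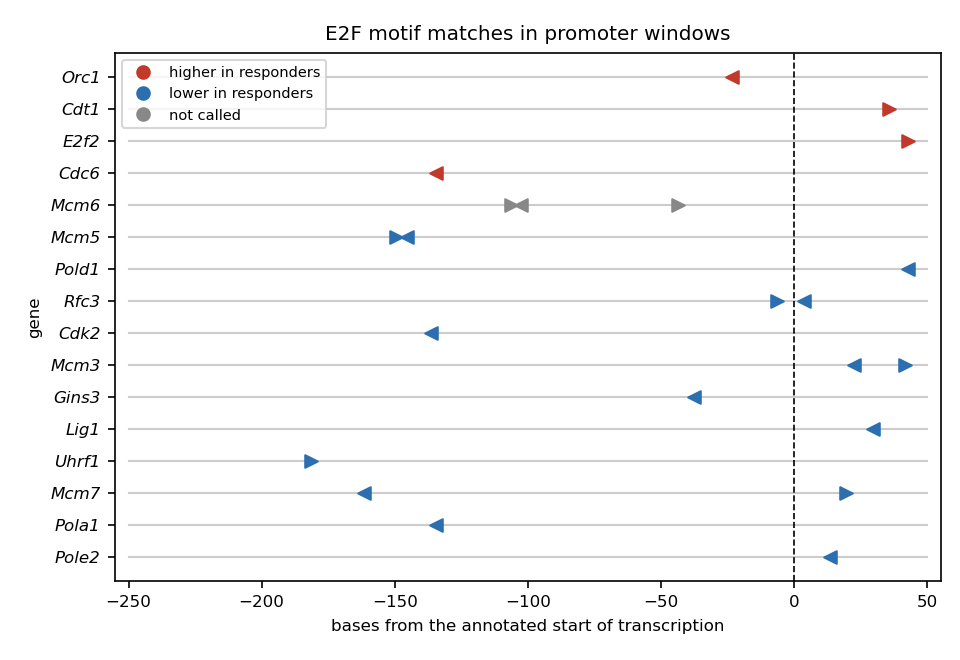
Positions of the 22 E2F motif matches in the promoter windows of 16 genes, in bases from the annotated start of transcription (dashed line at 0), coloured by the call of the gene in responders against bystanders. Each triangle is drawn at the middle of a match and points right where the match is on the strand of the gene, and the first bases of the matches range from 185 bases before to 39 bases after the start, and genes of both directions hold them.

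LPS treatment of the whole culture was read from the LPS pool against untreated cells. Of the 55 genes, 49 were lower in the LPS pool and 5 were higher, and Rpa3 passed in neither direction. Tyms was the least certain of the 49 (log2 -0.10, edgeR adjusted p = 0.0192): its call was lost with RLE size factors (0.0863), under DESeq2 (0.109), in a fit of only the 2 groups (0.0942) and without LPS pool replicate 4 (0.0718) or untreated replicate 4 (0.0684), each value an adjusted p. The background was 37.8% lower and 34.1% higher among all genes tested. The median log2 fold change of the 55 genes was -0.53, beside -0.03 for all genes tested, and 26 genes were lower by at least 1.5-fold. Of all 12589 genes tested, 1560 were lower by at least this fold. Libraries did not overlap for 49 lower and 5 higher genes, against 33.9% and 31.0% of all genes tested. Library totals alone gave 52 lower and 2 higher genes, and 21.6% of all calls were higher, against 47.4% with TMM. The summed level averaged 4950 ± 35.2 CPM in the LPS pool and 6168 ± 17.1 CPM in untreated cells (SD, n = 4 each).

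The falls reached across all roles, with medians on the log2 scale from -0.81 for nucleotide supply and uracil removal to -0.46 for the clamp, its loader and Okazaki fragment maturation. Tk1 had 46.4, 48.0, 45.1 and 50.3 CPM in LPS pool libraries, against 104, 104, 101 and 109 CPM in untreated libraries. E2f8 had 23.9, 25.4, 23.0 and 22.3 CPM in LPS pool libraries, against 49.7, 51.3, 52.0 and 56.1 CPM in untreated libraries. Both genes stood in the LPS pool below every untreated library, each at a log2 fold change of -1.14 (edgeR adjusted p = 1.16e-36 for Tk1 and 5.28e-29 for E2f8). Pole had 27.8, 28.3, 30.5 and 24.3 CPM in LPS pool libraries, against 56.8, 48.5, 55.1 and 53.9 CPM in untreated libraries (log2 -0.94, edgeR adjusted p = 6.29e-25). Uhrf1 had 131, 129, 132 and 122 CPM in LPS pool libraries, against 213, 218, 220 and 219 CPM in untreated libraries (log2 -0.76, edgeR adjusted p = 7.45e-36). Ung fell by 0.98 on the log2 scale in the LPS pool (edgeR adjusted p = 7.74e-26). All 6 MCM ring subunits fell, from -0.72 for Mcm4 to -0.14 for Mcm6.

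The 5 higher genes included a cyclin and a helicase activator. Ccnd1 had 864, 863, 880 and 859 CPM in LPS pool libraries, against 519, 501, 504 and 520 CPM in untreated libraries. Mcm10 had 126, 131, 127 and 126 CPM in LPS pool libraries, against 85.0, 81.0, 84.3 and 84.4 CPM in untreated libraries. In both genes all LPS pool libraries were above all untreated libraries, and Ccnd1 was 1.70-fold (edgeR adjusted p = 6.78e-43) and Mcm10 1.53-fold higher (edgeR adjusted p = 1.84e-28). The other 3 rested on the scaling. Orc1 (log2 0.26, edgeR adjusted p = 0.00149), Rfc3 (0.20, edgeR adjusted p = 0.000198) and Cdt1 (0.17, edgeR adjusted p = 8.86e-08) were higher by TMM, but with library totals alone they had log2 fold changes of -0.07, -0.12 and -0.16, of which Rfc3 and Cdt1 passed as lower (edgeR adjusted p = 0.394 for Orc1, 0.0179 for Rfc3 and 7.17e-07 for Cdt1). Ccnd1 and Mcm10 stayed higher under both scalings.

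Set against untreated cells, responders had 50 of 55 genes lower and 5 higher, and bystanders had 45 lower and 3 higher. These 2 comparisons share the untreated libraries. Some of these calls were near the threshold: Rpa3 in responders (-0.18, edgeR adjusted p = 0.0113) lost its call without responder replicate 3 or untreated replicate 1, while Gins1 (-0.10, edgeR adjusted p = 0.0434) and Pola2 (-0.09, edgeR adjusted p = 0.0425) in bystanders lost theirs with RLE size factors, under DESeq2 and without any 1 of several libraries (bystander 1, 3 or 4 or untreated 2 or 4 for Gins1, and bystander 1 or 4 or untreated 1 or 2 for Pola2). The background was 38.5% lower and 36.5% higher for responders against untreated cells, and 32.9% lower and 34.1% higher for bystanders against untreated cells. The median log2 fold change of the 55 genes was -0.64 in responders and -0.35 in bystanders, beside -0.02 and 0.01 for all genes tested. Libraries did not overlap for 49 lower and 4 higher genes in responders (35.3% and 33.8% of all genes tested) and for 44 lower and 3 higher genes in bystanders (29.7% and 31.0%). Under library totals alone, 52 genes were lower and 2 higher in each of the 2 comparisons, and the share of higher calls among all calls was 21.7% for responders and 27.5% for bystanders, against 48.7% and 50.9% with TMM. In responders 32 genes were lower by at least 1.5-fold and 7 by at least 2-fold, while in bystanders 11 genes were lower by at least 1.5-fold and 1, Ung, by at least 2-fold. Of all 12589 genes tested, 1969 and 785 were lower by these folds in responders, and 1144 and 370 in bystanders.

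Tk1, Ung and E2f8 were the lowest in responders against untreated cells. Tk1 was 3.09-fold lower in responders (log2 -1.63, edgeR adjusted p = 1.03e-44), and in bystanders its log2 fold change was -0.57 (edgeR adjusted p = 3.08e-23). E2f8 was lower by 1.52 on the log2 scale in responders (log2 -1.52, edgeR adjusted p = 1.64e-35) and had a log2 fold change of -0.80 in bystanders (edgeR adjusted p = 6.51e-23). Ung, which removes uracil from DNA, stood at -1.47 in responders and -1.07 in bystanders, below every other gene of the 55 in the bystander comparison. Pole stood at -1.16 in responders and -0.32 in bystanders, and Pole2 at -1.03 and -0.19, the last of which lost its call when bystander replicate 2 or 3 or untreated replicate 2 or 4 was left out (edgeR adjusted p from 0.0534 to 0.0658).

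For several fork genes the bystanders were not distinguished from untreated cells. Pcna had 361, 356, 358 and 361 CPM in responder libraries and 523, 522, 502 and 511 CPM in bystander libraries, against 512, 525, 518 and 507 CPM in untreated libraries. The ranges of the bystander and untreated libraries overlapped, with a log2 fold change of -0.00 (edgeR adjusted p = 0.849), whereas responders were lower than untreated cells by 0.52 on the log2 scale (log2 -0.52, edgeR adjusted p = 1.13e-30). Rfc1 had 65.9, 70.4, 63.7 and 62.9 CPM in responder libraries and 114, 110, 112 and 107 CPM in bystander libraries, against 114, 109, 105 and 115 CPM in untreated libraries. Its log2 fold change was -0.76 in responders (edgeR adjusted p = 1.26e-29) and -0.01 in bystanders (edgeR adjusted p = 0.895). Prim2 (-0.02), Rfc2 (-0.05), Slbp (-0.07), Gins2 (-0.11) and Rpa3 (-0.05) were likewise not called in bystanders. Gins2 and Slbp passed as lower with no filter on low counts (edgeR adjusted p = 0.0432 and 0.0482) and in a fit of only the 2 groups (0.0442 and 0.0474), and Gins2 also without bystander replicate 1 or 2 or untreated replicate 1 or 3 (edgeR adjusted p from 0.0268 to 0.0485). With library totals alone all 7 genes passed as lower in bystanders, at log2 fold changes of -0.20 for Pcna and for Rfc1, -0.22 for Prim2, -0.24 for Rfc2, -0.25 for Rpa3, -0.27 for Slbp and -0.30 for Gins2, beside a median of -0.18 for all genes tested.

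For genes that were higher in responders than in bystanders, the levels in untreated cells are set beside those of the sorted groups, with the bystander and untreated libraries serving in more than 1 of these comparisons. E2f2 had 47.8, 51.5, 50.9 and 47.1 CPM in responder libraries and 37.6, 34.6, 35.4 and 33.4 CPM in bystander libraries, against 68.6, 66.7, 68.9 and 65.3 CPM in untreated libraries. Cdc6 had 40.4, 37.1, 41.1 and 39.9 CPM in responder libraries and 30.3, 32.7, 33.7 and 32.6 CPM in bystander libraries, against 55.4, 56.6, 60.1 and 60.3 CPM in untreated libraries. In these 2 genes every responder library lay between the bystander and the untreated libraries. The log2 fold changes of E2f2 were -0.45 in responders and -0.94 in bystanders, and those of Cdc6 were -0.55 and -0.84. Cdt1 had 141, 136, 140 and 138 CPM in responder libraries and 97.6, 91.6, 95.2 and 97.8 CPM in bystander libraries, against 122, 119, 126 and 122 CPM in untreated libraries. Here the untreated libraries lay between the 2 sorted groups, with log2 fold changes of 0.18 in responders (-0.20 with library totals alone) and -0.35 in bystanders. Orc1 had the same order, at 0.46 in responders (0.07 and no call with library totals alone, edgeR adjusted p = 0.331) and -0.48 in bystanders.

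Ccnd1 and Mcm10 were higher than in untreated cells in both sorted groups. The log2 fold change of Ccnd1 was 0.85 in responders and 0.97 in bystanders, and that of Mcm10 was 0.68 and 0.76 (edgeR adjusted p at most 1.64e-31 for these 4 values). Rfc3 was called at 0.11 in responders (edgeR adjusted p = 0.0427) and 0.25 in bystanders. The call in responders was lost with no filter on low counts (edgeR adjusted p = 0.0806) and without responder replicate 2, 3 or 4 or untreated replicate 1, 3 or 4 (edgeR adjusted p from 0.0530 to 0.142), which leaves 4 higher genes. With library totals alone Rfc3 was lower, at -0.28, in responders, with no call in bystanders (0.06, edgeR adjusted p = 0.296). E2f1 and Ccne1 were lower in both groups, E2f1 at -0.60 in responders and -0.62 in bystanders and Ccne1 at -0.79 and -0.86.

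**Figure D4:**
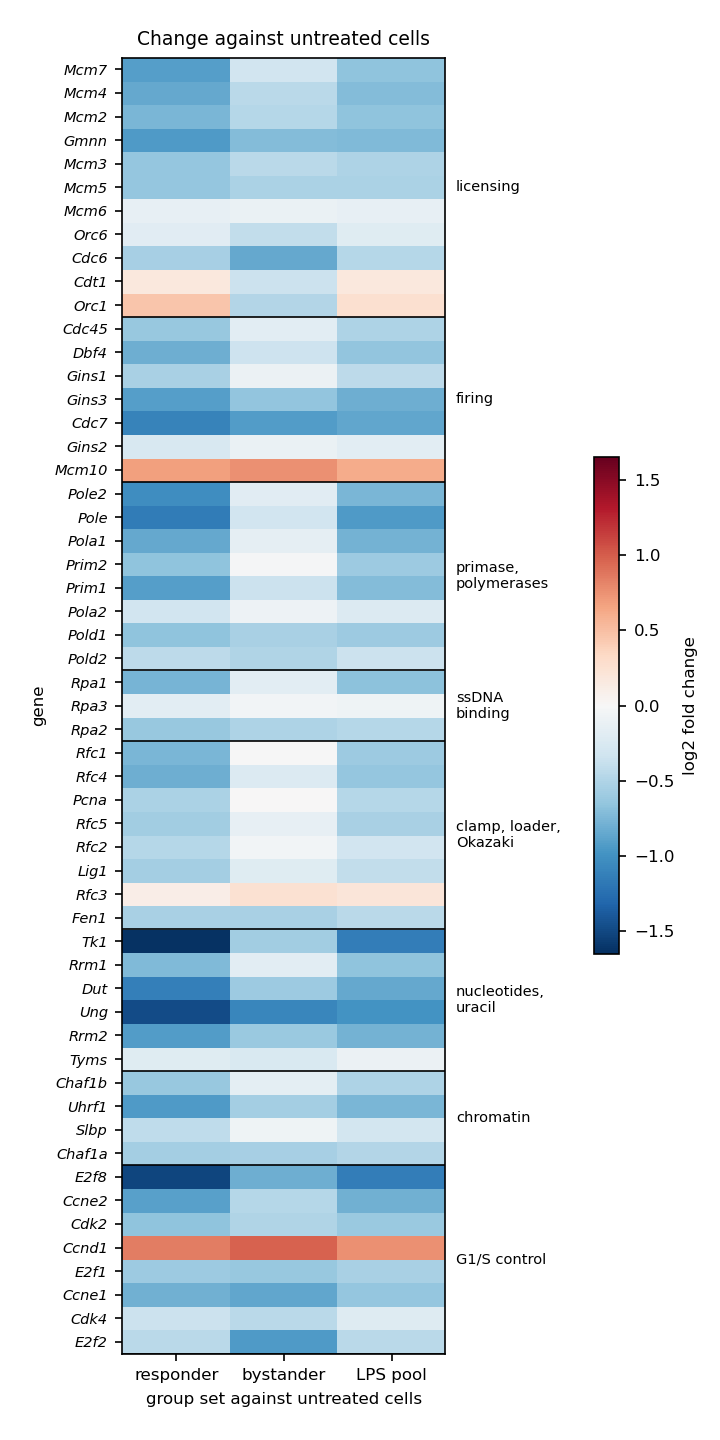
Log2 fold change of the 55 genes (rows) in responders, bystanders and the LPS pool (columns), each set against the same untreated libraries; the colour scale is log2, blue lower and red higher. Most cells are blue, Ccnd1, Mcm10 and, more faintly, Rfc3 are red in all 3 columns, and Orc1 and Cdt1 are red in responders and the LPS pool and blue in bystanders. With library totals alone Cdt1 and Rfc3 turn in responders and the LPS pool and Orc1 in the LPS pool.

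The LPS pool was closer to responders than to bystanders. Against the LPS pool, responders had 28 genes lower, 2 higher and 25 not called, with a background of 9.49% lower and 16% higher and a median log2 fold change of -0.10 beside 0.01 for all genes tested. Bystanders had 33 genes higher than the LPS pool, 10 lower and 12 not called, with a background of 34.1% higher and 32.9% lower and a median of 0.17 beside 0.00. These comparisons share the LPS pool libraries. Scaled by library totals alone, responders had 44 genes lower and 0 higher (30.6% of all calls higher, against 62.7% with TMM) and bystanders 41 higher and 5 lower (68.4% of all calls higher, against 50.9%). Responder and LPS pool libraries did not overlap for 21 lower genes and 1 higher gene, against 8.37% and 15.2% of all genes tested, and bystander and LPS pool libraries did not overlap for 32 higher and 10 lower genes, against 30.4% and 29.0%. By group means, the LPS pool lay between the sorted groups in 40 of 55 genes (72.7%, and 53.1% of all genes tested), and in 33 of 55 it lay between them and nearer to responders (60.0%, and 42.5% of all genes tested). Where it lay between them, it was nearer to responders in 33 of 40 genes, and in 5345 of 6685 among all genes tested. Nearness to responders was thus not particular to these genes.

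The genes furthest from the LPS pool in responders were Tk1 at -0.49 (edgeR adjusted p = 5.20e-14), Ung at -0.48 and E2f8 at -0.39 on the log2 scale. In bystanders the highest were Pola1 at 0.63, Pole at 0.62 and Rfc1 at 0.59, and the lowest were Orc1 at -0.74, Cdt1 at -0.52 and E2f2 at -0.50. The 2 genes called higher in responders than in the LPS pool were Ccnd1 (0.09, edgeR adjusted p = 0.000104) and Orc1 (0.20, edgeR adjusted p = 0.0335). Neither passed with library totals alone, and Orc1 lost its call without responder replicate 1 or 2, or without LPS pool replicate 2, 3 or 4 (edgeR adjusted p from 0.0599 to 0.184).

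By group means, responders were the lowest of the 4 groups in 41 of 55 genes (74.5%, and 27.1% of all genes tested), and untreated cells the highest in 50 of 55 (90.9%, and 34.8%). Bystanders were the lowest in 10 genes (18.2%, and 24.6%). The order untreated, bystander, LPS pool, responder from high to low was seen in 36 of 55 genes (65.5%, and 13.9% of all genes tested).

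Other genes of the pathway were read from the same test. Of 32 other genes of replication and S phase, 19 were lower and 9 higher in responders than in bystanders (median log2 fold change -0.18). These were 59.4% and 28.1%, against 35.3% and 34.7% of all genes tested. In the LPS pool, 25 were lower and 5 higher than in untreated cells (median -0.49). The shares here were 78.1% and 15.6%, against 37.8% and 34.1% of all genes tested. With library totals alone, the counts were 23 lower and 5 higher, and 30 lower and 1 higher. Dnmt1, the maintenance DNA methyltransferase that works with Uhrf1, averaged 175 ± 3.79 CPM in responder libraries and 295 ± 8.42 CPM in bystander libraries (SD, n = 4 each; log2 fold change -0.76). The remaining subunits of the origin recognition complex were higher in responders by TMM, at log2 fold changes of 0.38 for Orc2, 0.12 for Orc3, 0.39 for Orc4 and 0.26 for Orc5, but with library totals alone they were at 0.19, -0.07, 0.20 and 0.07, and only Orc2 and Orc4 passed. Timeless, a fork protection factor, averaged 124 ± 2.02 CPM in the LPS pool and 51.3 ± 2.04 CPM in untreated cells (SD, n = 4 each; log2 fold change 1.27).

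Of 22 other genes of G1/S control and CDK inhibitors, 21 were tested, and 9 were higher and 8 lower in responders than in bystanders (42.9% and 38.1%, against 34.7% and 35.3% of all genes tested; median 0.07). Myc, a transcription factor that drives growth, averaged 14.9 ± 1.68 CPM in responder libraries and 2.97 ± 0.181 CPM in bystander libraries (SD, n = 4 each; log2 fold change 2.32). Cdc25a, the phosphatase that activates Cdk2, averaged 73.9 ± 2.51 CPM in responder libraries and 38.6 ± 1.53 CPM in bystander libraries (SD, n = 4 each; log2 fold change 0.94). Cdkn1a, encoding the CDK inhibitor p21, averaged 705 ± 5.64 CPM in the LPS pool and 337 ± 4.54 CPM in untreated cells (SD, n = 4 each; log2 fold change 1.06). Among the lower genes were Rbl2 (log2 fold change -1.07) and Rb1 (-0.75), which encode members of the retinoblastoma family, the CDK inhibitor gene Cdkn2c (-0.87) and the cyclin gene Ccnd2 (-0.67). Other genes of these families were higher by TMM: the cyclin gene Ccnd3 (0.85) and the CDK inhibitor genes Cdkn2d (0.61), Cdkn1b (0.49) and Cdkn1a (0.25). By library totals alone, 8 of the 21 were higher and 10 lower in responders (median -0.12).

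Among 28 genes of G2 and mitosis, all 28 were lower in responders than in bystanders (median log2 fold change -0.60) and all 28 were lower in the LPS pool than in untreated cells (median -0.78). In bystanders 21 of these 28 genes were lower than in untreated cells and 2 were higher (median -0.30). Of all genes tested, 35.3%, 37.8% and 32.9% were lower in these 3 comparisons, and 34.1% were higher in the last. The medians of the 55 G1/S and replication genes in the same 3 comparisons were -0.29, -0.53 and -0.35. The 28 genes gave the same counts in the first 2 of these comparisons with library totals alone.

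Markers of other cell types were low but not absent. The neural transcripts Dcx, Stmn2 and Mapt together gave 179 to 260 counts in 6 libraries (responder 1, bystander 3 and 4, LPS pool 3 and 4, and untreated 1) and 1 to 9 counts in the other 10. Summed levels of the 15 neural markers, 10 of them tested, were 51.4 to 73.6 CPM in responders, 63.8 to 80.8 CPM in bystanders, 57.8 to 82.3 CPM in the LPS pool and 98.5 to 124 CPM in untreated cells. Most of these counts came from Mbp, with 1724 to 2086 counts in untreated libraries, and Nefm was at 0 in all responder libraries. In the 10 libraries without these transcripts, 39 of the 55 genes were lower and 6 higher in responders than in bystanders, with 63.7% of all genes called in that fit. The 6 libraries with them hold only 1 responder library, so that only the size of the difference is given. There the median log2 fold change was -0.25 for the 55 genes and -0.01 for all genes tested. In the fit of all 16 libraries 70.0% of all genes were called. Fibroblast markers summed to 8.69 to 30.3 CPM in responders, 1.94 to 76.9 CPM in bystanders, 3.18 to 106 CPM in the LPS pool and 7.02 to 30.8 CPM in untreated cells, and their part in the results was not tested. Lymphocyte markers stayed at or under 2.71 CPM with 4 of 7 at 0 in each group, and neutrophil and epithelial markers at or under 1.73 CPM.

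Some of these genes share sequence with others. By the GENCODE M21 annotation, exons of 21 of the 55 genes overlap those of another gene and 16 overlap a protein-coding gene, among them Tk1 with Afmid, Mcm7 with Cops6 and Ap4m1, Cdc45 with Ufd1, Cdk4 with Tspan31, Rfc4 with Eif4a2, Orc6 with Vps35 and Pole2 with Gm49384. Whether counting used strand is not given in the sources used here, so the values of these genes are uncertain to that extent. Pcna and Tyms have pseudogenes of like sequence, and how reads were divided between them is not given in the sources used here.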

How the data were processed

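RNA was taken from iBMDM cells sorted into TRIzol LS, and 16 libraries in 4 groups of 4 were analysed. The authors deposited a table of raw counts per gene with no normalization, and per the submitters' processing notes the tools included HISAT2 2.2.2, featureCounts 2.1.1, fastp 1.1.0 and cutadapt 3.7, with GRCm38 (mm10) as the genome build. The sources used here do not give the strand setting or the annotation. Of 27179 gene identifiers, 25275 matched a symbol, and the 1904 others (0.399% of counts) were kept under their identifiers. The 3 empty columns of the table were not used. Totals ran from 15287344 to 25193162 counts per library.

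The counts were fitted in edgeR 4.0.16 (R 4.3.3, limma 3.58.1) with filterByExpr, TMM factors, 1 mean per group over all 16 libraries and a robust quasi-likelihood F test, two-sided, with Benjamini-Hochberg adjustment over 12589 genes and a threshold of 0.05. SE is the log2 fold change divided by the root of F. The scripts were tested on simulated data. Alternatives were RLE size factors, library totals alone, no filter, DESeq2 1.42.0, a fit of only the groups compared, a replicate block and leaving out each library. A split of the libraries by Dcx, Stmn2 and Mapt counts (at least 50) was chosen after seeing the data. Whether replicate numbers pair the libraries was read from the correlation of deviations from the group means: every pair was over 0.1 for responders and untreated cells (0.169 to 0.605) and for bystanders and the LPS pool (0.391 to 0.475), but not in the other 4 comparisons, where the lowest was -0.468. The labels give no source for such a pairing. Krt8 had 3 to 36 counts in responder libraries and 9 to 29 in untreated libraries. It had 0 to 4 in bystander libraries and 1 to 7 in LPS pool libraries. In the same order, Col1a1 in replicate 3 had 365, 342, 1385 and 1185 counts. Responders against bystanders, and the LPS pool against untreated cells, each cross these 2 pairs of groups. So do bystanders against untreated cells and responders against the LPS pool. A difference between the pairs cannot be told apart from what these comparisons measure, and its part was not tested. Within groups no library repeated another: chi-square per degree of freedom over the 24 pairs was 1.61 to 3.13. Libraries of different groups were not compared in this way.

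The members and the other gene lists were chosen with earlier results of these data known. Values of every library are given for 21 genes: in each role the 2 with the largest absolute log2 fold change between responders and bystanders, up to 6 genes by size called higher in that comparison or in the LPS pool against untreated cells, and Pcna and Ccnd1. The other members are described by role, and genes of the other lists that are named were chosen after their values were seen.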

Additional observations from a re-analysis of the deposited data

Results flagged for a closer look

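In 4 of the 88 groups of 4 libraries examined (the 21 genes and the summed level in each group), 1 library stood further from the other 3 than Dixon's 95% limit allows, where chance gives about 1 in 20. Cdc45 had 47.9 CPM in untreated replicate 2, and the other untreated libraries had 45.34 to 45.72 CPM. Rrm1 had 264 CPM in bystander replicate 1, and the other bystander libraries had 274 to 275.4 CPM. Ccnd1 had 1017 CPM in bystander replicate 3, and the other bystander libraries had 991 to 993.9 CPM. The summed level of the 55 genes was 6193 CPM in untreated replicate 4, and 6157 to 6162 CPM in the other untreated libraries.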

How the results depend on the processing

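With library totals alone, the genes called higher numbered 3 for responders against bystanders (6 with TMM), 2 for the LPS pool against untreated cells (5), 2 for responders against untreated cells (5) and 0 for responders against the LPS pool (2). The genes called lower numbered 44 for responders against the LPS pool (28 with TMM) and 5 for bystanders against the LPS pool (10). It also turned Orc1 in the LPS pool against untreated cells (-0.07), Cdt1 in the same comparison (-0.16) and Cdt1 in responders against untreated cells (-0.20). The 2 genes higher in responders than in the LPS pool became 1 in a fit of only these groups, 1 to 2 when a library was left out and 1 in the 10 libraries without neural transcripts. The 6 libraries with these transcripts hold only 1 responder library. There the median log2 fold change against the LPS pool was -0.11 for the 55 genes and 0.02 for all genes tested. With the replicate block over all 16 libraries, 41 genes were lower and 6 higher in responders than in bystanders, and 49 lower and 5 higher in the LPS pool than in untreated cells. The replicate block was also fitted with only the groups compared, in the 2 comparisons whose same-number libraries all correlated over 0.1. This was chosen after seeing the data, and the labels do not establish a pairing. For responders against untreated cells this gave 50 lower and 5 higher genes, and for bystanders against the LPS pool 33 higher and 10 lower. These were the same counts as without the block. Of the values of the 21 genes under all alternatives, 1976 kept direction and side of the threshold, 55 lost the call, 24 gained it and 3 turned. These 21 genes were chosen mostly for large differences, so these counts do not describe all 55 genes. Among all 55 genes, library totals alone changed 11 calls for responders against bystanders and 4 for the LPS pool against untreated cells. This scaling changed 3 for responders and 8 for bystanders against untreated cells, and 18 for responders and 13 for bystanders against the LPS pool. RLE size factors changed at most 2 in any comparison. Depth limits the genes with few counts: for responders against bystanders the SE was 0.09 for Pole2 and 0.02 for Pcna.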
